A study of Aspergillus nidulans with 6 samples.

Results

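AtfA binding in 3-day-old conidia of *Aspergillus nidulans* was compared between cultures exposed to menadione sodium bisulfite (MSB Tr. (3 d), 2 ChIP-seq peak lists) and unexposed cultures of the same age (Untr. (3 d), 2 lists). These 4 of the 6 lists of the series hold 1816 of its 2723 peaks, and joining peaks that share 1 bp or more gives 629 regions, against 707 with all 6 lists. Both groups carry the same strain, *atfA*::3XFLAG, with the alleles pyrG89 and pyroA4, the deletion ΔatfA::AfupyrG+, the integrated gene atfA-3XFLAG::pyroA+ and a wild-type veA+ allele. In it the deleted *atfA* gene is complemented by the vector pHS13 with FLAG-tagged *atfA* under its own promoter and the *trpC* terminator, so every AtfA molecule that can be precipitated comes from that construct. Conidia came from surface cultures on NMM agar, and the treated cultures received 0.04 mM MSB. Chromatin was precipitated with the anti-FLAG M2 antibody, and no input, untagged or other control library is named in the sources used here. Peak lists hold no expression, so the cell type could not be checked against markers. The study calls the lists of a condition biological replicates. Nothing in the labels says whether they came from separate cultures, so every p below measures only the spread between these 4 lists.

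AtfA is a bZIP transcription factor and the counterpart of Atf1 of fission yeast. Such factors bind the cAMP response element as dimers, and in fission yeast Atf1 acts at the end of the stress MAP kinase cascade, whose kinase in *A. nidulans* is HogA. Conidia are the dormant asexual spores of the fungus, packed with catalase, trehalose and dehydrin-like proteins, and menadione is a redox-cycling quinone that raises superoxide inside the cell.

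Most AtfA regions with good rank were held under both conditions, and conidial genes such as *conJ*, *conF*, *ccgA* and *catA* stood near the top of all 4 lists. Of the 629 regions, 296 (47.1%) had a peak in each of the 4 lists. A further 55 were held by both MSB lists and 1 untreated list, 25 by both untreated lists and 1 MSB list, and 39 by 1 list of each condition. Of the 381 regions held by both MSB lists, 351 (92.1%) also had an untreated peak, and of the 352 held by both untreated lists 321 (91.2%) also had an MSB peak. Both MSB lists and no untreated list held 30 regions (4.77% of all regions), and both untreated lists and no MSB list held 31 (4.93%). A single list alone held the rest, 76 regions in untreated replicate 1, 23 in untreated replicate 2, 23 in MSB replicate 1 and 31 in MSB replicate 2.

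How often a region was shared went with its rank. Among the regions at or below percentile 25 of each list, 41.7% and 68.0% of the regions of the untreated lists (replicates 1 and 2) had an MSB peak, and 62.5% and 58.6% of those of the MSB lists had an untreated peak. Above percentile 75 these shares were 95.7%, 98.2%, 100% and 99.1%. Regions without a peak of the other condition thus lay mainly at the low end of the lists. Across the regions shared by 2 lists, percentiles were correlated with Spearman's rho of 0.852 between the MSB replicates (381 regions), 0.817 between the untreated replicates (352 regions) and 0.673 to 0.817 across conditions (323 to 371 regions), given as a description since regions of a list share its library.

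**Figure D1:**
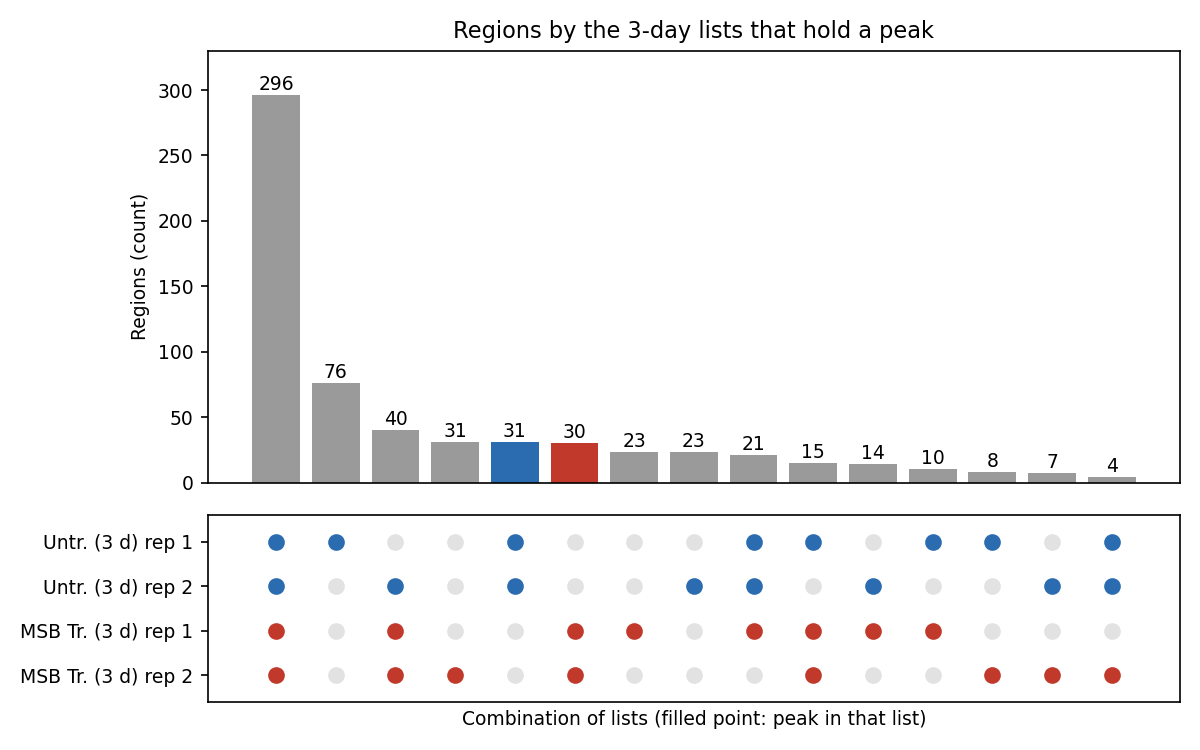
Number of merged regions (y axis) for each combination of the 4 three-day lists that hold a peak (points under each bar, untreated in blue, MSB in red). The 296 regions of all 4 lists form the tallest bar, and the regions held by both lists of 1 condition alone number 31 (blue bar, untreated) and 30 (red bar, MSB).

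The lists differ in how finely they were measured. Peak scores are the authors' own values on each library's RPKM-normalized track, and in each list all scores were whole multiples (within 0.1) of a step of that list. The lowest peak stood at 31 steps in untreated replicate 1, 61 in untreated replicate 2, 121 in MSB replicate 1 and 203 in MSB replicate 2, and the median peak at 59, 112, 235 and 335 steps. Both untreated lists thus reach down to fewer steps than either MSB list. The sources do not say that a step is 1 read. If it is, counting error alone would be 18.0% at the lowest peak of untreated replicate 1 and 7.02% at that of MSB replicate 2. The number of steps cannot be told apart from the treatment, and neither can the peak names in the files, which begin with K3D in both untreated lists and with LE-MSB in both MSB lists. Scores were therefore used as percentiles within their own list, with 100 for the highest peak.

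In pairs of lists, the MSB replicates overlapped in 86.8% of their peaks and the untreated replicates in 78.3%. Between conditions, untreated replicate 1 overlapped the MSB lists in 75.2% and 72.2%, and untreated replicate 2 in 83.2% and 79.8%. The second untreated list was thus closer to either MSB list than to its own replicate. The mean was 82.6% ± 6.01 (SD, n = 2 pairs) within conditions and 77.6% ± 4.86 (SD, n = 4 pairs) between them, a difference of 4.96 percentage points (exact permutation test over 3 pairings of the lists, one-sided, p = 0.333, the smallest it can give). It was -0.88 without MSB replicate 2, 2.30 without MSB replicate 1 and 13.1 without untreated replicate 2. Pairs of lists that cross the conditions held 7, 8, 10 and 14 regions alone, against 30 for the MSB pair and 31 for the untreated pair (exact permutation tests over 6 labellings, two-sided, p = 0.667 and p = 0.333, the latter the smallest possible). When each list was cut to its 300 best peaks, these counts were 24 and 17, of which 4 and 8 were among the 30 and the 31. With 1 list left out, so that fewer lists had to hold or lack a peak, they were 70 and 108 without untreated replicate 2, 45 and 56 without untreated replicate 1, 64 and 52 without MSB replicate 1 and 55 and 35 without its replicate 2.

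The regions held by all 4 lists are led by the gene for the factor itself and by genes of conidial proteins. The region tied to *atfA* (chrVI:2425641-2428080, in the coordinates of the *A. nidulans* FGSC A4 genome of JGI MycoCosm, which all positions here use) had percentiles of 99.6 and 100 in the untreated lists and 100 and 100 in the MSB lists. It was also the widest, with peaks of 2320 and 2400 bp untreated and 2360 and 2340 bp with MSB. The native *atfA* gene is deleted in this strain, and the introduced construct carries *atfA* with its own promoter. Reads of any sequence that lies both on the construct and at the native place cannot be told apart. The same holds for *pyroA*, a gene of pyridoxine synthesis and the marker of the construct, at percentiles of 72.2 and 83.7 untreated and 90.4 and 94.9 with MSB.

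The next 4 regions by mean percentile over the lists belong to genes named for conidiation or glucose starvation and to the conidial catalase. The region of *conF*, a counterpart of the Con-6 conidiation protein, of AN8639, a putative trehalose-phosphate synthase, and of AN8641 and AN8642 stood at 99.4 and 99.8 untreated and at 99.8 and 99.4 with MSB. The region of *ccgA*, a Grg1-like glucose-repressible gene, stood at 99.2 and 99.6 against 99.6 and 99.8, and that of *conJ*, a counterpart of Con-10, at 98.7 and 99.1 against 98.9 and 99.1. The region shared by *catA*, the conidial catalase that removes hydrogen peroxide, and *cetJ* stood at 98.5 and 98.2 against 98.5 and 98.6. At *conF*, *conJ* and *catA* the conditions overlapped, and at *ccgA* both MSB values lay above both untreated ones by less than 1 percentile. The opsin gene *nopA* followed with 96.3 and 97.0 untreated and 99.3 and 98.9 with MSB. AN3783, a protein of unknown function (96.8 and 97.8 against 98.2 and 97.7), and 3 regions without a tied gene (chrI:2330301-2330940, chrV:2395781-2396340 and chrVII:2593401-2594120) complete the first 10.

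Across the 296 regions of all 4 lists, percentiles were spread to both sides of no difference. The MSB mean minus the untreated mean had a median of -0.23 percentiles, with quartiles of -9.02 and 10.3 and extremes of -42.0 and 48.9, while replicates differed by a median of 7.34 (MSB) and 8.51 (untreated). Both MSB values lay above both untreated values in 80 regions (27.0%) and below both in 74 (25.0%). In limma with Benjamini-Hochberg adjustment over the 296 regions, 0 (0.0%) had an adjusted p under 0.05 and the lowest adjusted p was 0.165, while 55 (18.6%) had an unadjusted p under 0.05. The regions named below for a percentile difference are therefore those with the largest separation of the 2 conditions, and none passed the test across regions.

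**Figure D2:**
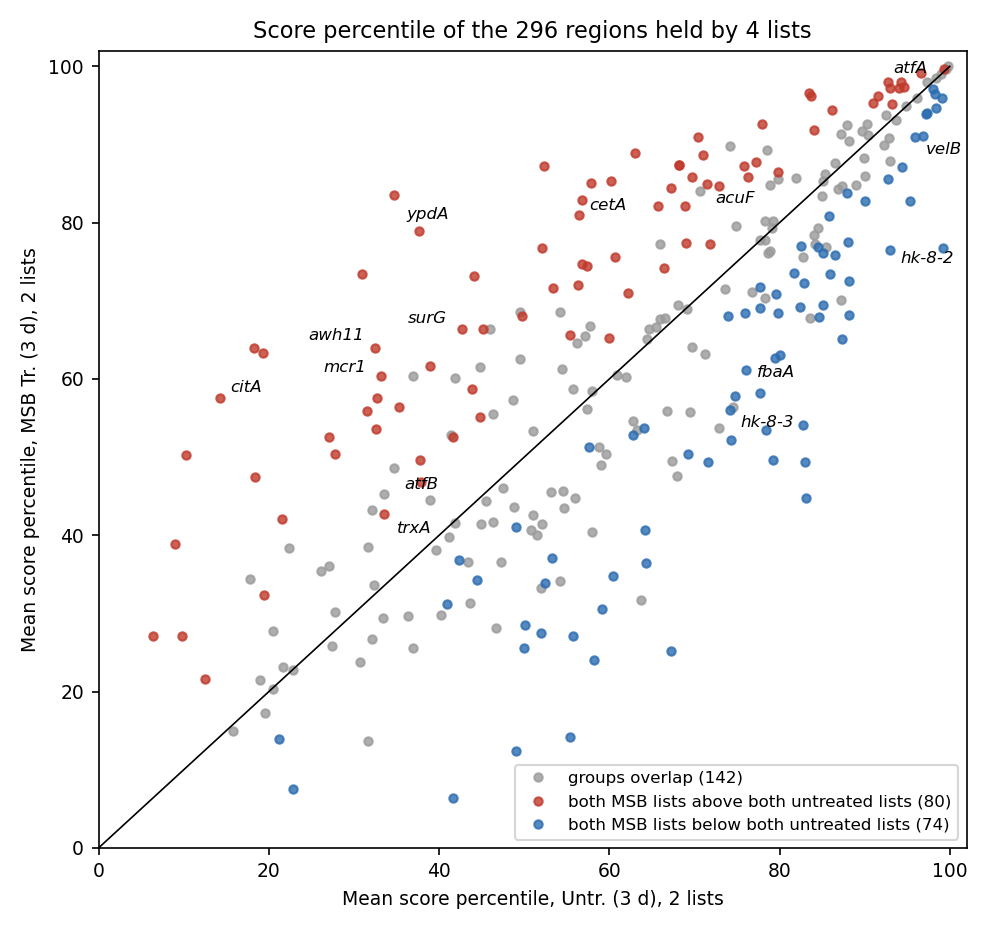
Mean score percentile of each of the 296 regions held by 4 lists, Untr. (3 d) on the x axis and MSB Tr. (3 d) on the y axis (2 lists each, percentile within the own list). Red points (80) have both MSB lists above both untreated lists, blue points (74) both below, grey points overlap, and the line marks equal percentiles.

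Among the regions higher with MSB, those of *ypdA* and *citA* had the largest differences of the regions tied to a gene with a symbol. The region of *ypdA* (chrVII:2535641-2536240), the histidine-containing phosphotransfer protein that passes phosphate from sensor kinases toward the HogA cascade, stood at 29.2 and 46.1 untreated and at 82.0 and 75.7 with MSB, a difference of 41.2 percentiles. The next region on the chromosome (chrVII:2537301-2538120), with no gene tied to it, had the largest difference of all, from 40.7 and 28.6 to 86.1 and 81.1 (48.9 percentiles, limma adjusted p = 0.165). The region of *citA* (chrII:1354861-1355480), citrate synthase at the entry to the TCA cycle, stood at 1.9 and 26.6 untreated and at 49.8 and 65.3 with MSB. Its untreated replicates lay far apart, but neither reached the lower MSB value. The others among the 10 largest were AN2471 (9.9 and 26.6 against 64.9 and 63.1), AN12051 (13.2 and 7.2 against 58.3 and 42.1), AN1415 (59.7 and 44.9 against 91.2 and 83.3), *awh11* with AN11729 (42.5 and 22.4 against 66.6 and 61.3), AN6060, with a predicted nucleic acid binding domain (6.3 and 11.5 against 30.6 and 47.3), and 2 regions without a gene, chrI:934981-935900 and chrIII:2662101-2662560. The *awh11* gene encodes a small heat shock-like protein.

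The 10 largest differences toward lower values with MSB lay at 8 regions with a tied gene and 2 without. AN6397, with a predicted ATP-binding domain, stood at 79.1 and 55.3 untreated and at 35.5 and 14.8 with MSB, the largest difference in this direction (-42.0 percentiles). AN4089 stood at 68.1 and 42.7 against 14.1 and 14.2. The region of AN10977 (chrIV:2248421-2249060), whose orthologs are extracellular, stood at 85.8 and 80.5 against 45.8 and 43.7, and it had the lowest p of all regions (limma adjusted p = 0.165). AN4500, a putative inhibitor of the mitochondrial ATPase, stood at 53.4 and 58.1 against 10.5 and 43.7, and AN7325, whose orthologs are DNA polymerases of replication, at 81.7 and 76.8 against 69.5 and 29.7. The remaining ones of the 10 largest were AN5355, AN1578, AN7011 and 2 regions without a gene, with differences between -28.7 and -36.6 percentiles.

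The 30 regions held by both MSB lists and no untreated list were of low rank. Their mean percentile had a median of 22.6 and a highest value of 52.5, against a median of 64.9 for the regions held by 4 lists, and in none of the 30 did both lists exceed percentile 50. A gene was tied to 20 of them. Among them was *sodA*, the Cu/Zn superoxide dismutase that turns superoxide into hydrogen peroxide. Its region (chrVIII:4172781-4173060) stood at 8.8 in MSB replicate 1 and at 50.8 in replicate 2, with peaks of 280 and 240 bp. The nearest untreated peak was 14340 bp away. The region of *cycA*, cytochrome c of the respiratory chain, stood at 19.6 and 44.2, and the region shared by *orlA*, a trehalose 6-phosphate phosphatase, and AN3442 at 23.2 and 46.9. For *veA*, the velvet regulator that links development to light, the values were 35.5 and 24.1, and for *ubi4*, the polyubiquitin gene, 3.2 and 2.5, close to the bottom of both lists. AN8553, a putative catalase, stood at 14.1 and 19.9, and *bemA*, a Bem1-like polarity scaffold, at 43.0 and 21.2.

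The highest mean in this set was that of *mdm34*, which in baker's yeast belongs to the tether between the endoplasmic reticulum and mitochondria, at 26.7 and 78.2, so the replicates lay far apart. AN5764, a light-induced transcript, stood at 52.8 and 38.8 and AN0454 at 37.0 and 52.1. The other genes were AN7018, AN5768, AN5231 (a putative exo-arabinanase), *nnk1* (a protein kinase), AN1418 (at 2 neighbouring regions), *fimA* (the actin-bundling fimbrin), AN5568 (a putative F-box protein), AN2014 with AN2015, and AN2425, all with values of 42.8 or less in either list. Of the 30 regions, 7 lay within 1000 bp of an untreated peak, the nearest at 120 bp.

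The 31 regions held by both untreated lists and no MSB list reached higher ranks, though their median mean percentile was 30.4. In 4 of them both lists exceeded percentile 50. The highest (chrV:2010741-2011240, no gene tied) was the best peak of all in untreated replicate 1, at 100, and stood at 87.0 in replicate 2, with no MSB peak within 10900 bp. The region of *ran1* (chrIII:506741-507220), a serine/threonine kinase whose fission yeast namesake holds back meiosis, stood at 81.7 and 85.5. A region without a gene (chrVI:1148781-1149260) stood at 81.7 and 67.4, and that of AN0183, a putative molybdopterin-binding protein, at 65.5 and 74.6. The region of *cryA*, a photolyase with a part in light control of development, followed at 53.4 and 42.7 (chrVIII:3714341-3714620, nearest MSB peak 9340 bp away).

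The rest of the untreated-only set lay lower or differed more between the replicates. A pair of neighbouring broad regions without a gene on chromosome VI (chrVI:3405501-3406980 and chrVI:3407101-3407920) stood at 76.7 and 10.0 and at 88.6 and 35.6. The region of *fbxB*, an F-box protein, and AN5516 stood at 9.9 and 10.0. The other tied genes were AN7138 with AN7139, AN2884, AN9163, AN9100, AN1654, AN10099, AN2238, AN4218, AN4711, AN4105, AN5318, AN10050 with AN10051, AN6059 and a second region of AN10977, 100 bp from an MSB peak of that gene. Among these, AN4218 is annotated as an elongation factor by its orthologs and AN5318 as a putative non-ribosomal peptide synthetase, and all stood at 55.4 or less in both lists. The remaining 9 regions, at 66.9 or less in both lists, had no gene.

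The lists of untreated 2-day conidia, which had no part in choosing these regions, had a peak in 293 of the 296 regions held by 4 lists (99.0%) and in both 2-day lists in 250 (84.5%). Of the 30 regions found with MSB alone, 22 (73.3%) had a 2-day untreated peak in at least 1 list and 7 in both, and of the 31 untreated regions 17 (54.8%) and 7. For comparison, a 2-day peak was found in 51.9% of the regions of 1 MSB list only and 31.3% of those of 1 untreated list only. The share was 64.1% for 1 list of each condition, 85.5% for both MSB and 1 untreated list, and 88.0% for both untreated and 1 MSB list. The regions of *orlA*, *cycA*, *fimA*, AN5764, AN0454 and AN7018 were in both 2-day lists, and that of *sodA* was in 1, at percentile 3.69. Among the regions of the opposite kind, *ran1*, AN0183 and chrV:2010741-2011240 were in both 2-day lists, the last at 55.1 and 98.2. The regions of *ubi4*, AN5768, AN8553 and AN5568 were the tied genes of the MSB set, with AN2014 and AN2015 and 1 of the 2 regions of AN1418, that no untreated list of either age held.

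The 2-day lists also gave values for the regions named for a percentile difference. At *ypdA* they stood at 70.1 and 80.4 and at its neighbour chrVII:2537301-2538120 at 65.2 and 65.7, in both cases nearer the MSB than the 3-day untreated values. At *citA* they stood far apart, at 67.2 and 9.33. Of the 80 regions higher with MSB, 73 were in both 2-day lists, and in 30 of these (41.1%) the 2-day mean was nearer the untreated 3-day mean than the MSB mean. Of the 74 lower ones, 63 were in both 2-day lists, and 27 of these (42.9%) had the 2-day mean nearer the untreated 3-day mean.

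Genes were also taken from 7 lists set up by role. Here tied means that the promoter peak the study lists for a gene was found among these regions. Only the 502 genes of the study's list can be tied, so the number tied reflects which genes were put on a role list. Of the 502, 21 were ambiguous and 11 could not be placed. A gene without a tie may therefore still have a peak. Of all regions with a tied gene, 52.5% were in all 4 three-day lists. Of the antioxidant and redox genes, 5 of 16 were tied. Beside *catA* at the top of all lists, *trxA*, the thioredoxin gene, stood at 36.6 and 30.5 untreated and at 40.6 and 44.9 with MSB, and *mcr1*, a cytochrome b5 reductase, at 17.7 and 48.8 against 58.9 and 61.7. Of the 3 regions of this list in all 4 lists, these 2 were thus higher and wider in both MSB lists and 0 were lower, beside 27.0% higher, 22.3% wider and 25.0% lower over all 296 regions. Of the 5 tied regions, those of *sodA* and *cycA* were among the 30 held by both MSB lists and no 3-day untreated list. These 30 are 4.77% of all 629 regions. In the untreated 2-day lists, the region of *sodA* had a peak in 1 list and that of *cycA* in both. The other superoxide dismutase, *sodB*, the catalases *catB*, *catC* and *cpeA*, the peroxiredoxins *prxA* and *prxB* and the bZIP factor *napA* were tied to no region.

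In the list for the HogA pathway and kinases, 12 of 17 genes were tied. The genes *sskA*, *srrA*, *sskB*, *pbsA* and *pkaR* were tied to no region. The study places *pkaR* and the MAP kinase kinase of this pathway, which it calls PbsB, under AtfA control. The lack of a tie does not show that no peak lies at these genes. The region of *tcsB* was in a single untreated list (15.5) and that of *rgsA* in a single MSB list (2.73). Of the other tied regions, 10 were in all 4 lists. Both MSB values were higher in 3 of these and lower in 3, close to the 27.0% and 25.0% over all 296 regions. The phosphotransfer gene *ypdA*, the phosphatase *ptpA* (72.2 and 82.2 against 84.9 and 90.5) and *hk-8-7*, annotated as a putative phosphotransfer protein (61.0 and 70.4 against 89.6 and 74.6) were higher. The study lists *hk-8-7* with histidine kinase genes but describes it as an ortholog of *GCN20* of baker's yeast. The phosphorelay genes *hk-8-2* (92.0 and 94.0 against 80.0 and 72.9), *hk-8-3* (73.8 and 74.6 against 60.8 and 51.3) and *hk2* (85.3 and 83.7 against 76.5 and 77.3) were lower. The MAP kinase gene *hogA* itself stood at 77.5 and 65.0 untreated and at 70.5 and 55.9 with MSB, and *pkaA*, the catalytic subunit of protein kinase A, at 66.9 and 41.5 against 74.7 and 62.3, with overlap of the conditions at both.

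**Figure D3:**
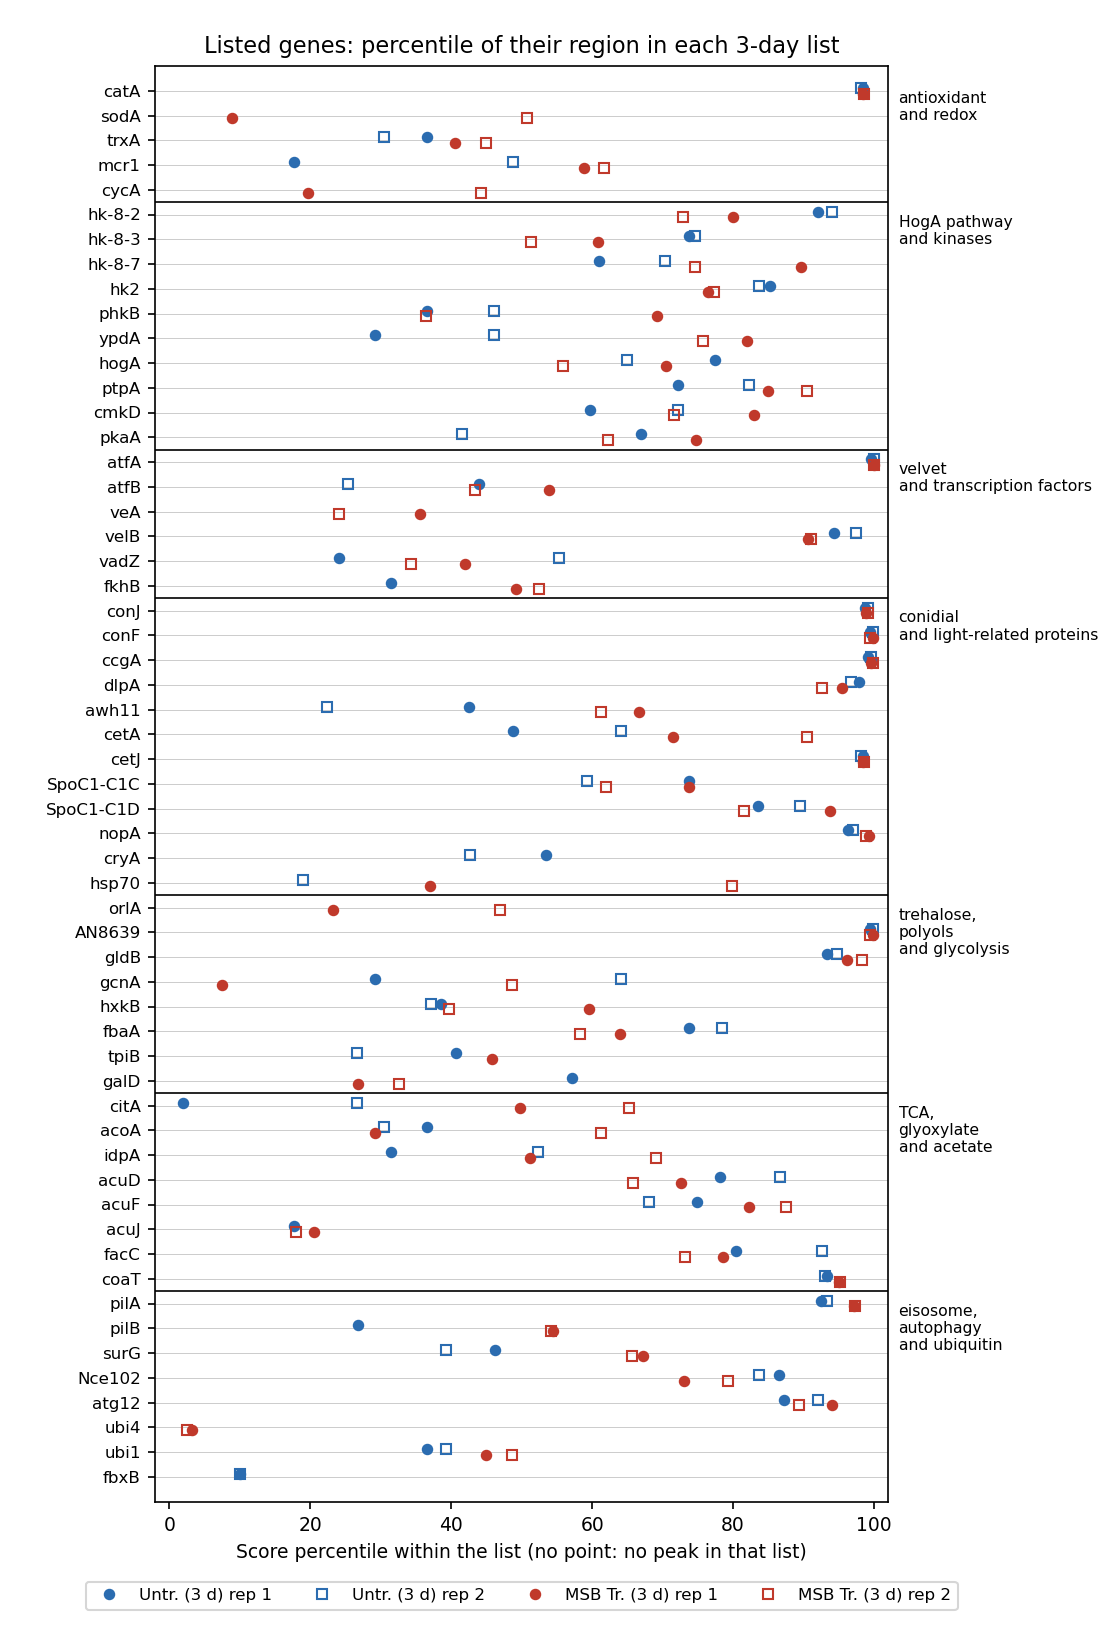
Score percentile within each list (x axis) for the genes of the 7 role lists whose region had a peak in both lists of at least 1 condition, untreated in blue and MSB in red, replicate 1 as filled circles and replicate 2 as open squares. Genes such as *conJ*, *conF*, *ccgA* and *catA* sit above 98 in all 4 lists, while *ypdA*, *citA* and *mcr1* have both red points to the right of both blue points.

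Among velvet and other regulators, 7 of 13 genes were tied. The study counts *silG* and *nsdD* among the AtfA targets and describes *flbD* as negatively affected by AtfA. None of these genes was tied to a region here, which does not show that no peak lies at them. The region of *velB*, a velvet protein of conidial maturation, was in all lists, at 94.4 and 97.5 untreated and 90.7 and 91.1 with MSB. Among the 3-day lists *veA* had peaks in the MSB lists alone, but its region also had a peak in 1 untreated 2-day list. In the same 3-day lists *vosA* had 1 region in a single MSB list and another in a single untreated list. The forkhead gene *fkhB* was in both MSB lists (49.2 and 52.5) and 1 untreated list (31.5). The bZIP gene *atfB*, a neighbour of the *conF* and *catA* regions, stood at 44.0 and 25.4 against 53.9 and 43.3, with overlap of the conditions. Its peak widths are given below.

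The 12 conidial and light-related genes were all tied, 10 of them to regions of all 4 lists. Over all regions with a tied gene the share in all 4 lists was 52.5%, and over all 629 regions 47.1%. In 4 of the 10 both MSB values were higher (*ccgA*, *awh11*, *cetA* and *nopA*) and in 1, the dehydrin-like gene *dlpA*, both were lower (97.9 and 96.7 against 95.4 and 92.6). The thaumatin-like gene *cetA* stood at 48.7 and 64.1 untreated and at 71.5 and 90.5 with MSB. The region of the Hsp70 gene *hsp70*, which is also tied to *chz1*, had peaks in both MSB lists (37.0 and 79.8) and in 1 untreated list (19.0). That of *cryA* had peaks in the untreated lists alone.

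In the list for trehalose, polyols and glycolysis, 11 of 14 were tied and 5 regions were in all 4 lists. Higher with MSB were *gldB*, a glycerol dehydrogenase whose region is also tied to AN5564 (93.3 and 94.8 against 96.2 and 98.3), and *hxkB*, a hexokinase-like protein (38.5 and 37.1 against 59.5 and 39.7). Lower was *fbaA*, the aldolase (73.8 and 78.4 against 63.9 and 58.3). In the TCA, glyoxylate and acetate list, 10 of 13 were tied, and of 7 regions in all lists 3 were higher and 2 lower with MSB. Higher were *citA*, *coaT*, an acetyl-CoA hydrolase (93.3 and 93.1 against 95.0 and 95.2), and *acuF*, the phosphoenolpyruvate carboxykinase of gluconeogenesis (74.9 and 68.1 against 82.3 and 87.5). Lower were *acuD*, the isocitrate lyase of the glyoxylate cycle (78.2 and 86.6 against 72.6 and 65.8), and *facC*, a carnitine acetyltransferase (80.4 and 92.7 against 78.6 and 73.2).

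All 11 genes for eisosomes, autophagy and ubiquitin were tied, and 5 of their regions were in all lists. The eisosome gene *pilA*, whose product forms furrows of the plasma membrane, stood at 92.5 and 93.3 against 97.2 and 97.3. The region of the Sur7-like gene *surG* and AN4614 stood at 46.2 and 39.2 against 67.2 and 65.6. That of *ubi1*, a ubiquitin fusion gene, and AN4873 stood at 36.6 and 39.2 against 45.0 and 48.6. *Nce102* was the one on the lower side, at 86.5 and 83.7 against 73.1 and 79.3. Over the 7 lists, the median percentile difference of regions in all 4 lists ran from -0.67 for the regulators to 11.7 for the TCA list, beside -0.23 over all 296 regions, and the lists hold 3 to 10 such regions each. The counts of higher and lower regions in these lists run from 0 of 4 to 2 of 3 and from 0 of 3 to 3 of 10, beside 27.0% and 25.0% over all 296 regions. The 8 tied genes of the 44 that the stress protein database of the study links to menadione had a median difference of 0.21 in 5 regions.

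Peaks had a somewhat larger width in MSB replicate 1 than in the other lists. Over the 296 regions the median width was 420 and 440 bp in the untreated lists and 500 and 410 bp in the MSB lists, and the median difference of the condition means was 20 bp (ratio 1.05). Both MSB peaks were wider than both untreated peaks in 66 regions (22.3%) and narrower in 22 (7.43%). The direction rested on MSB replicate 1. Without it the median log2 width difference was -0.058 in place of 0.075, and of the regions with an unadjusted p under 0.05 in limma 9 were wider and 18 narrower, in place of 18 and 5. Of the 66 wider regions, 38 also had both MSB percentiles higher. In limma on log2 width, 1 region (0.338%) had an adjusted p under 0.05 and 23 (7.77%) an unadjusted p under 0.05. That region (chrV:2780061-2781100, no gene tied) had peaks of 280 and 300 bp untreated and 1040 and 1000 bp with MSB, a log2 difference of 1.81 ± 0.19 (SE, limma adjusted p = 0.0459). In the 2-day untreated lists its peaks measured 1000 and 820 bp, and no region passed when any 1 of the 4 lists was left out. After each list's median log2 width was subtracted, 9 regions passed, 6 wider and 3 narrower.

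The largest width difference with a gene was at *atfB* (chrIII:3285381-3287200), with 480 and 280 bp untreated and 1820 and 600 bp with MSB, so that most of it came from MSB replicate 1. Other wide regions were those of AN12261 (440 and 1280 bp against 1620 and 1580 bp), AN10726 (380 and 940 against 1340 and 1300 bp), AN3180 (400 and 500 against 1040 and 800 bp), *acuF* (820 and 580 against 1160 and 1180 bp) and *cetA* (340 and 480 against 760 and 820 bp). At *citA*, outside the 10 largest, the widths were 200 and 360 bp untreated and 540 and 620 bp with MSB. The 10 largest also include 4 regions without a gene. On the narrower side, AN4500 measured 540 and 660 bp untreated and 300 and 320 bp with MSB, AN4089 640 and 340 against 240 and 200 bp, and *pyroA* 1320 and 940 against 860 and 900 bp. AN8714, AN4256, AN8339 and 3 regions without a gene were also among the narrower 10, the tenth place was shared by AN5480 and AN7960, and the mean differences ran from -140 to -450 bp. A width depends on the height at which a list starts to count a peak, and that height differed between the lists, as given above.

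**Figure D4:**
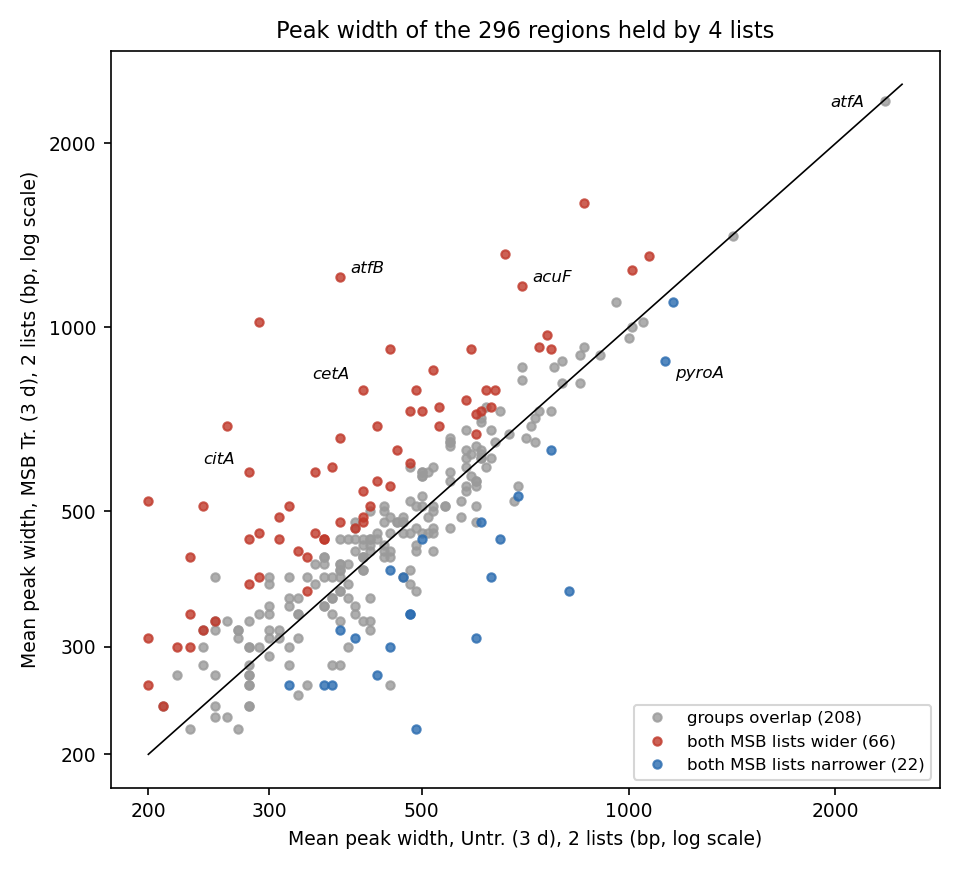
Mean peak width in bp of the 296 regions held by 4 lists, Untr. (3 d) on the x axis and MSB Tr. (3 d) on the y axis (2 lists each, log axes). Red points (66) were wider in both MSB lists, blue points (22) narrower in both, and *atfA* at over 2300 bp lies near the line of equal width.

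The position of the summit, the highest point of a peak, differed little between the conditions at most regions. Peak edges lie on a grid of 20 bp, and the mean summits of the conditions lay within 20 bp of each other in 167 of 296 regions, within 50 bp in 240 (81.1%) and more than 200 bp apart in 11. The median distance between summits was 20 bp for the MSB replicates and for all 4 pairs of lists across conditions, and 30 bp for the untreated replicates, and the mean between conditions minus the mean within them was -5 bp (exact permutation test, one-sided, p = 1, smallest possible 0.333). At *atfA* the summit of untreated replicate 1 lay 1010 bp from the start of the region, and those of untreated replicate 2 and of the MSB lists at 1720, 1730 and 1730 bp.

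In 6 regions the summits of the 2 conditions were at least 100 bp apart with no overlap. The widest separation was at chrV:1615761-1616940, where no gene was tied. There the untreated summits lay 110 and 130 bp from the start of the region and the MSB summits 910 and 950 bp from it, with percentiles of 99.8 and 98.7 untreated and 76.2 and 77.3 with MSB, in peaks of similar width (1140 to 1180 bp against 1100 bp). This was the only region with an adjusted p under 0.05 for summit position in limma (1 of 296, 0.338%, shift of 810 bp ± 19.8 SE, adjusted p = 0.0246), while 21 (7.09%) had an unadjusted p under 0.05. In the 2-day untreated lists the summits lay at 730 and 930 bp, near those of the MSB lists, with percentiles of 98.9 and 100. No region passed when either MSB list was left out, and 67 and 71 passed without untreated replicate 1 or 2, when the spread between replicates came from the 2 MSB lists alone. The other regions of this kind were those of AN1902 (190 and 210 bp untreated against 430 and 450 bp, with 190 bp in the only 2-day list with a peak), AN4239, whose orthologs belong to the RSC chromatin remodeller (190 and 150 against 390 and 390 bp, 2-day lists 190 and 430 bp), *artB*, an arrestin-related gene (290 and 220 against 480 and 570 bp, 2-day lists 230 and 590 bp), the neighbour of *ypdA* (390 and 350 against 610 and 590 bp, 2-day lists 610 and 590 bp) and chrVIII:2716961-2717760 (490 and 630 against 230 and 390 bp, 2-day lists 390 and 370 bp). The 2-day summits thus lay near those of the MSB lists in some of these regions, near the untreated ones at AN1902, and were split between them at AN4239 and *artB*.

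**Figure D5:**
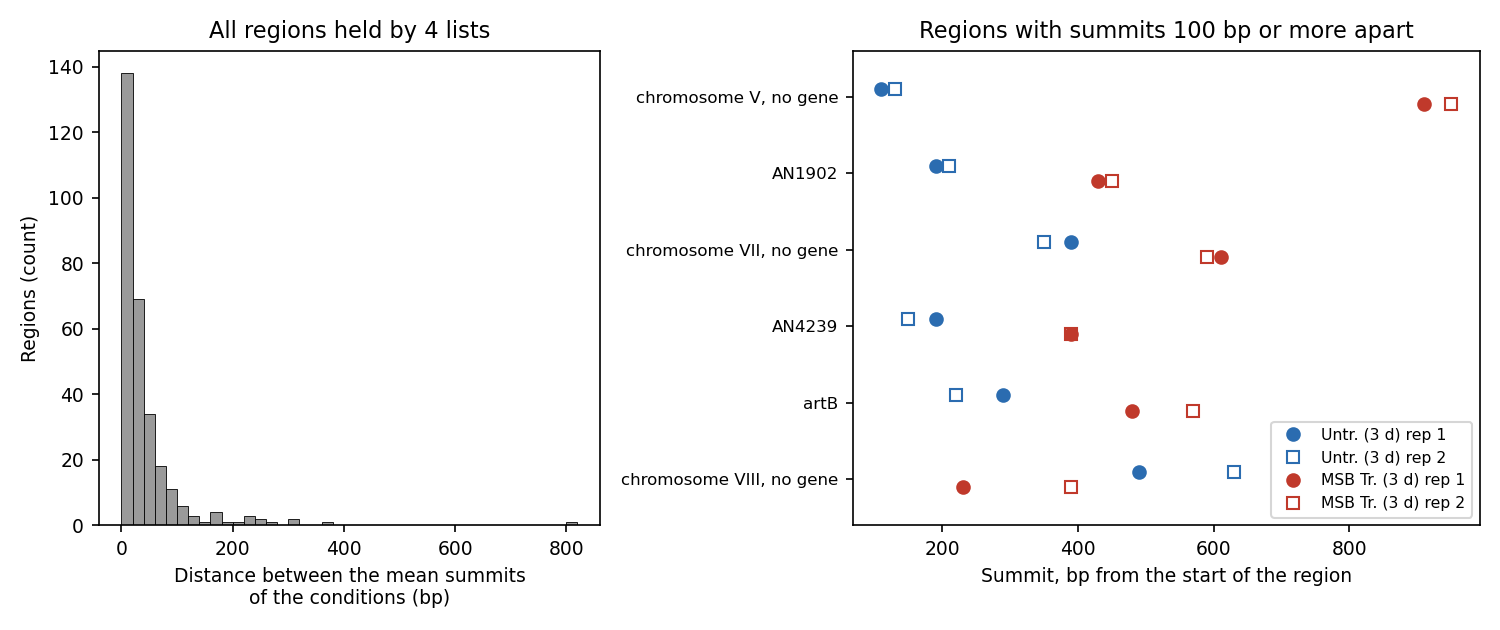
Left, distance in bp between the mean summits of the untreated and the MSB lists over the 296 regions held by 4 lists (bars of 20 bp), most of them under 50 bp. Right, summit of each list in bp from the start of the region for the 6 regions with summits at least 100 bp apart, untreated in blue and MSB in red; the chromosome V region at the top has summits at 110 and 130 bp against 910 and 950 bp.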

How the data were processed

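The 6 deposited files are narrowPeak lists, 1 per library. Per the labels and the study's methods, the authors used Bowtie2 for alignment, SAMtools and Picard to handle alignments and drop PCR duplicates, deepTools for RPKM-normalized tracks and MACS2 for peaks of each library. The peak score was made by the authors' caller on each library's own track and was used as a percentile within a list, and the other deposited values used are the peak start, end and summit in bp. Fold enrichment, p and q are filled with 0 and were not used. Read counts were not analysed here, so depth is seen only through the score steps described above, as far as these are reads.

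Peaks of the 4 three-day lists were merged with Python 3.11.15, numpy 2.4.6, pandas 2.3.3 and scipy 1.17.1 and plotted with matplotlib 3.10.9. A region's best peak in a list gave its percentile and summit, and all its peaks gave its width. limma 3.58.1 (R 4.3.3) compared the conditions over the 296 regions, without a block, after a test on simulated data. The 6 labellings or 3 pairings of the lists were used for exact tests.

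No annotation in these coordinates was used. Of 502 genes with promoter peaks in the study's supplement, 470 were placed by matching the listed pattern of peak positions in the 6 lists, 225 at a single place and 245 between neighbours, and 436 of them are tied to regions of the 4 lists. Of the 225, the 214 found in the RefSeq gene table were held out in turn, and 213 could be placed again, on the same regions. Of the 629 regions, 402 (63.9%) have a tied gene. Regions named are those of 1 condition alone, the 10 with the highest mean percentile, and up to 10 per direction with the largest percentile or width difference without overlap, together with the listed genes. The 6 regions with summits apart and the values of the 2-day lists beside results were chosen after results were seen. The comparison, the gene lists and this rule were all chosen with earlier results of these data known. Alternatives were merging within 100 bp, the 300 or 439 best peaks, linked summits, 50% overlap, other rank and width scales, regions with 1 peak per list, peak centres, a replicate block and leaving out each list.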

Additional observations from a re-analysis of the deposited data

How the results depend on the processing

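The counts of regions of 1 condition alone (30 with MSB, 31 untreated) were 28 and 31 with peaks within 100 bp merged, 26 and 26 with equal numbers of best peaks, 34 and 34 with linked summits and 24 and 17 with the 300 best peaks. Leaving out a list gave 45 to 70 and 35 to 108, since fewer lists then have to hold or lack a peak. The difference in overlap within and between conditions (4.96 points) was 4.16 to 6.0 under other overlaps and peak numbers and -0.88 to 13.1 with a list left out, with a change of sign without MSB replicate 2. For score percentiles, limma called 0 regions under each alternative, with 27 to 68 at an unadjusted p under 0.05. The median log2 width difference, 0.075, was -0.058 without MSB replicate 1. For width it called 1 region in bp or with single peaks, 9 after centring and 0 with any list left out. For summits it called 1 with single peaks and 0 to 71 with a list left out. The median summit distance between minus within conditions was 1.25 bp for peak centres, against -5 bp for summits, and -10 to 0 bp with a list left out. The causes were not tested.

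Replicate numbers are shared by the conditions but are not said to mark a common culture, and the deviations of same-numbered lists were correlated with 0.199 for percentiles, 0.119 for log2 widths and 0.0971 for summits, from 2 pairs. With the replicate block, the overlap difference was 5.07 points, the summit distance -5.0 bp, and limma called 0 regions for percentile, 4 for width and 0 for summit position. As far as score steps are reads, they limit the lowest peaks most, and the untreated lists more than the MSB lists.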
